A study of Mus musculus with 32 samples.

Results

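The Peg13, Trappc9 and Kcnk9 domain of mouse chromosome 15 was described by the reads that tell its maternal from its paternal copy. Its members were chosen by name and position: Trappc9 (listed as 1810044A24Rik), Peg13 (NR_002864), Eif2c2 (Ago2), Chrac1 and Kcnk9 in the tables of transcripts, and every listed base of the surrounding stretch of chromosome 15 in the tables of the genome, from position 72335723 beside Kcnk9 to position 72944258 within Eif2c2 (build mm9). These were 5 of the 18508 genes listed in the series. All 5 were listed at embryonic day 15 (E15) and 4 in each adult region, where Chrac1 was absent from the transcript tables. The stretch held 195 listed bases in all, 140 in the preoptic area, 118 in the prefrontal cortex and 176 at E15, with 103 of them in all 3 tables. At E15 the genome table listed 301580 bases altogether.

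Polyadenylated RNA came from F1 hybrids of 2 inbred strains, CastEiJ (CAST) and C57BL/6J (B6). F1i mice had a CAST mother with a B6 father, and F1r mice had a B6 mother with a CAST father. Mice aged 5 weeks gave 4 pools of the preoptic area (POA), an anterior hypothalamic region, and 4 of the prefrontal cortex (PFC, its medial part). In each region every cross had a female and a male pool, with RNA of 8 to 10 animals in a pool. Whole E15 brain gave 1 pool per cross, with 4 to 5 embryos of unstated sex in a pool. One further E15 pool of each parental strain served to check the bases. The labels name no engineered allele and no treatment in any group. The labels do not say whether pools came from separate litters, or whether POA and PFC came from the same animals, so p-values measure the spread between pools only.

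Autosomal reads that cover a strain-specific base, here called informative reads, numbered 3491518 to 7466420 in the adult pools, and 11011461 and 11449538 in the E15 F1i and F1r pools. The maternal share is the percent of informative reads with the mother's base, the CAST base in F1i and the B6 base in F1r. A share of 50% means equal reads from both copies. Levels are given as RPM, informative reads of a gene per 1000000 autosomal informative reads, both at bases listed in all tables. Cortex markers summed to 7.26 to 12.1 RPM in POA and 574 to 754 RPM in PFC, over the 2 of 5 listed in all tables (Tbr1 and Slc17a7). Markers of the preoptic area summed to 256 to 363 RPM in POA and 30.0 to 52.4 in PFC, again over 2 of 5 (Esr1 and Slc32a1).

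Imprinted genes are expressed mainly or only from the copy of one parent, set by DNA methylation laid down in the egg or the sperm. Peg13 is a noncoding RNA that lies within an intron of Trappc9, and the methylated region at its promoter is known to be the imprint control of this domain. In mouse brain the paternal copy expresses Peg13, and the neighbouring genes lean to the maternal copy. Trappc9 encodes a subunit of the TRAPP complex, which works in vesicle trafficking and NF-kB signalling. Kcnk9 (TASK3) is an acid-sensitive leak potassium channel of neurons. Eif2c2 encodes Argonaute 2, the protein that cuts targets of small RNAs, and Chrac1 a small histone-fold protein of the CHRAC chromatin remodelling complex.

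On mm9, Kcnk9 lies at 72342549 to 72376709 and Trappc9 at 72420051 to 72891634, both on the minus strand. The placed bases of Peg13 span 72636069 to 72640649, in an intron of Trappc9 and on the same strand. Chrac1 lies at 72920822 to 72927984 on the plus strand, and Eif2c2 at 72932055 to 73015377 on the minus strand. The sequences of 5 informative bases follow, 1 for each stretch whose share the results below rest on. Each is the B6 sequence of the minus strand, 29 bases in 5′ to 3′ direction from the NCBIM37 assembly (the same build as mm9), and the capital is the base that differs in CAST.
Peg13 T932C, in a Trappc9 intron, chr15:72639809-72639837: ccagccaacgcctgTacagctctttgtta
Trappc9 T508C, coding exon 5′ of Peg13, chr15:72888667-72888695: atcaccatcaccgaTtgcttctcgcccaa
Trappc9 C2878G, coding exon 3′ of Peg13, chr15:72587679-72587707: ctacacgtggaagtCgagccttctgtgtt
Kcnk9 C81T, coding exon, chr15:72376615-72376643: gccgcggtgttcgaCgccctcgagtcgga
Eif2c2 C1944T, coding exon, chr15:72944244-72944272: caccgacaggagatCatccaggacctggc
In each name the B6 base stands first, then the position counted from 1 at the 5′ end of the transcript, then the CAST base. At the Peg13 base the mean maternal share was 0.0926% over the 4 POA pools, 0.182% over the 4 PFC pools and 0.585% over both E15 pools. At the Kcnk9 base it was 98.8%, 86.6% and 100% in the same order. The Trappc9 base 5′ of Peg13 had means of 74.4%, 80.7% and 80.0%, the one 3′ of it 70.8%, 66.2% and 76.1%, and the Eif2c2 base 71.6%, 68.5% and 75.5%.

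Within the domain a single gene, Peg13, was read almost wholly from the paternal copy, and Trappc9, Eif2c2 and Kcnk9 were read more from the maternal copy. All 4 members tested over the 8 adult pools were called, with an adjusted p under 0.05 and the same parent higher in both crosses, against 0.709% of the 11276 autosomal genes tested. In POA all 4 were called as well, against 1.11% of 11508 genes. In PFC Trappc9 and Peg13 were called and Eif2c2 was not, against 0.444% of 11036 genes, and Kcnk9 had too few reads to be tested. At E15 4 of 4 were called, against 4.93% of 14185 genes, by Fisher's exact test on 1 pool per cross, which covers counting error alone. On the whole of chromosome 15, 5 of 452 tested entries were called in adults, the 4 members and DQ715667, and at E15 23 of 551 were called, 4 of them members.

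**Figure D1:**
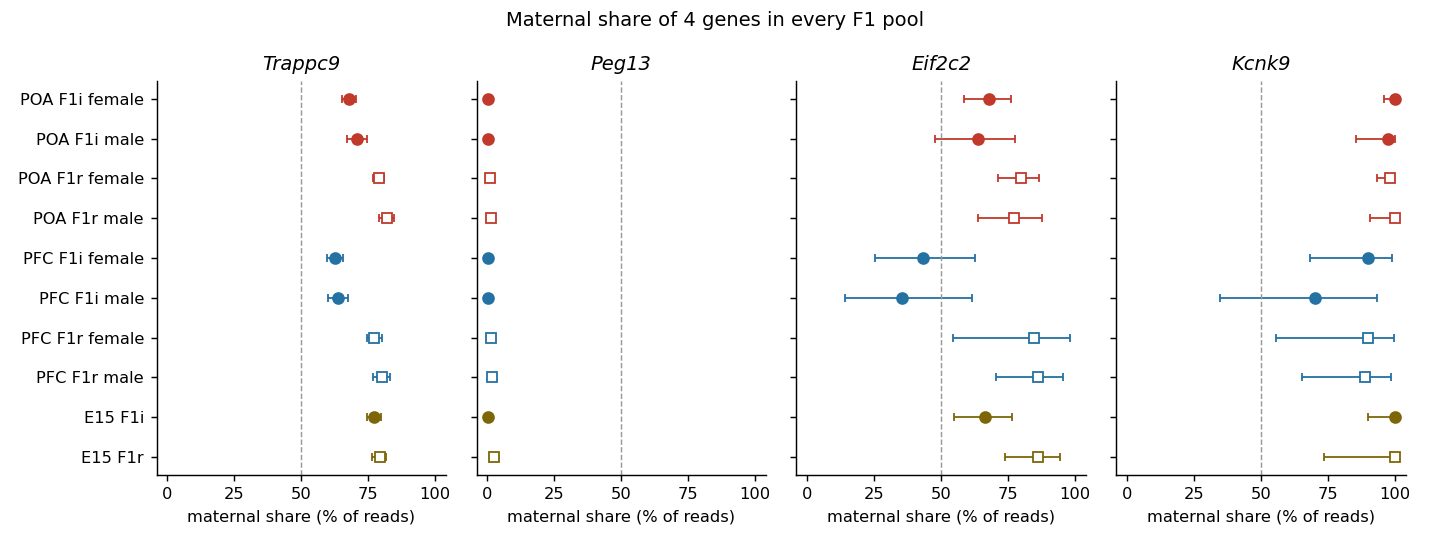
Maternal share of Trappc9, Peg13, Eif2c2 and Kcnk9 (horizontal axis, percent of informative reads) in each F1 pool (vertical axis), with Clopper-Pearson 95% intervals for counting error. Filled circles are F1i and open squares F1r pools, red POA, blue PFC and brown E15, and the dashed line marks 50%. Peg13 lies at the left edge in all 10 pools, Trappc9 lies above 50% in all 10, and the intervals of Eif2c2 and Kcnk9 are wide in PFC.

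Peg13 gave the most informative reads of the members and was the only one called paternal. Its maternal share in POA was 0.168% and 0.206% in the F1i female and male pools, and 1.11% and 1.52% in the F1r female and male pools. In PFC the same pools had 0.227% and 0.219% in F1i, and 1.55% and 1.89% in F1r. The E15 pools had 0.117% in F1i and 2.48% in F1r. The mother's base was thus rare in every pool, and each F1r pool lay above each F1i pool. The parental term was a log2 value of -15.05 ± 0.12 over the adult pools, -15.39 ± 0.13 in POA and -14.59 ± 0.17 in PFC. The adjusted p by edgeR was 1.6e-31, 7.6e-22 and 1.3e-23 in the same order. This log2 value is the CAST to B6 ratio in F1i minus that in F1r, so a negative one means a higher paternal copy, and equal shares of both copies give 0. At E15 it was -14.96 ± 0.48, where ± is a standard error computed from the read counts. After a log2 value from edgeR, here and below, ± is that value divided by the square root of its F statistic. It is not a standard error of the counts. It can be smaller than counting error where one copy has few reads, as for Peg13 and Kcnk9.

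Reads with the mother's base at Peg13 were few, 9 to 175 of 7065 or more reads per E15 pool and 6 to 73 of 2445 or more per adult pool. In the pool of pure CAST embryos 48 of 3069 Peg13 reads (1.56%, exact 95% interval 1.16 to 2.07) had the B6 base, which that strain should not carry. In pure B6 embryos 9 of 4286 (0.210%, interval 0.0961 to 0.398) had the CAST base. The mother's base is B6 in F1r and CAST in F1i, so the cross with the higher share is the one whose maternal base was also the more frequent in the wrong strain. How much of the maternal share of Peg13 these reads make up was not tested.

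Past the end of Peg13 towards the 3′ end of Trappc9, further bases were read from the paternal copy. Bases from 72623030 to 72636003 had a mean maternal share of 0.774% ± 1.0 in POA (SD, n = 4 pools, 468 reads), 2.27% ± 4.55 in PFC (n = 4, 75 reads) and 3.22% ± 0.834 at E15 (n = 2, 741 reads). No base there had enough reads per pool for the main test of single bases. The stretch includes the terminal exon of a short Trappc9 isoform, whose bases in the transcript tables were maternal in 6 of 167 and 4 of 109 reads in the POA F1r pools, and in 0 of 72 and 1 of 45 reads in the POA F1i pools. At E15 they were maternal in 1 of 94 F1i reads and 21 of 316 F1r reads. The counts do not tell the strand, nor whether these reads belong to Peg13 or to the short isoform.

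Trappc9 itself was read from both copies, with the maternal copy ahead in every pool. Its maternal share in POA was 67.7% and 71.0% in the F1i female and male pools, and 78.9% and 81.9% in the F1r female and male pools, over 620 to 1538 reads each. In PFC it was 62.6% and 63.7% in F1i, and 77.3% and 80.2% in F1r. The E15 pools had 77.2% in F1i and 79.2% in F1r. All 10 shares lay above 50%, and in both adult regions the F1i shares lay below the F1r shares without overlap. The parental term was 2.92 ± 0.11 over the adult pools (edgeR, adjusted p = 1.1e-16), 3.16 ± 0.12 in POA (5.9e-12), 2.65 ± 0.14 in PFC (2.3e-11) and 3.69 ± 0.15 at E15 (Fisher's exact test, 2.1e-150). These values come from the transcript with most reads, which has no base within Peg13. Over all transcripts of the gene, the short isoform among them, the term was 2.40 in adults, 2.27 in POA and 1.96 at E15, and it stayed called.

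Exons of Trappc9 lie on both sides of Peg13, and both sides were maternal. Bases 5′ of Peg13 had a maternal share of 75.8% ± 4.45 in POA, 75.2% ± 5.77 in PFC (n = 4 each) and 81.8% ± 1.63 at E15 (n = 2). Bases 3′ of Peg13 had 73.7% ± 8.34, 67.5% ± 11.9 and 73.8% ± 2.17 in the same order. The 5′ side was the higher in 7 of 10 pools, by 5.49 ± 5.93 points on average (exact sign-flip test over pools, two-sided p = 0.0215, 0.0859 adjusted over the 4 pairs of stretches compared). This comparison was chosen after the data had been seen, and over the 8 adult pools alone p was 0.0859. The difference averaged 9.12 points in the F1i pools, 5 of 5 higher, and 1.87 points in the F1r pools, 2 of 5 higher.

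**Figure D2:**
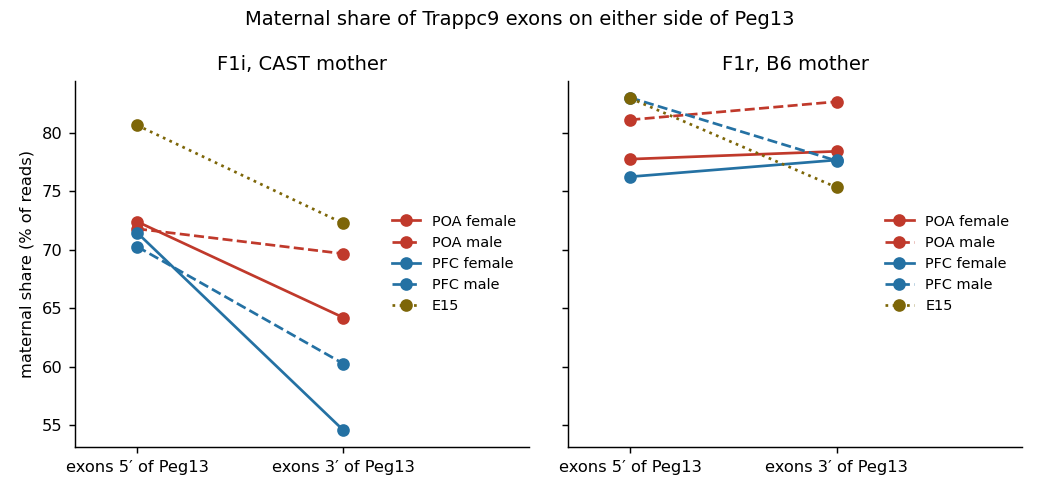
Maternal share of Trappc9 exon bases (vertical axis, percent of reads) 5′ and 3′ of Peg13, each line 1 pool, with F1i pools on the left and F1r pools on the right. Solid lines are female, dashed lines male and dotted lines E15 pools, and all lines lie above 50%. The lowest point is the PFC F1i female pool, at 54.6% 3′ of Peg13.

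Kcnk9 was read almost wholly from the maternal copy in POA and at E15, and mostly so in PFC. Its coding sequence held 1 informative base, which was maternal in 91 of 91, 35 of 36, 101 of 103 and 38 of 38 reads in the POA F1i female, F1i male, F1r female and F1r male pools. In PFC the same pools had 18 of 20, 7 of 10, 9 of 10 and 16 of 18. At E15 all reads were maternal, 35 of 35 in F1i and 12 of 12 in F1r, whose exact 95% intervals reach down to 90% and 73.5%. The parental term was 9.57 ± 0.75 over the adult pools (edgeR, adjusted p = 1.4e-09) and 12.61 ± 0.78 in POA (6.3e-09). At E15 Fisher's exact test gave an adjusted p of 1.5e-09. No size is given there, since without paternal reads the ratio depends on the 0.5 reads added to each count before the logarithm at E15. In PFC, with the filter lowered to 5 reads per pool, it was 5.20 (adjusted p = 0.016).

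Bases beyond both annotated ends of Kcnk9 gave more reads and the same parent. Those past its 3′ end, 72335723 to 72342078, were maternal in 98.9% ± 0.785 of POA reads and 94.7% ± 1.70 of PFC reads (n = 4 each), and in 98.5% ± 1.40 of E15 reads (n = 2). Those before its 5′ end, 72377023 to 72380303, had 98.3% ± 1.12, 94.6% ± 2.55 and 99.2% ± 1.14 in the same order, over 3 bases in POA and at E15 and 6 bases in PFC. At the 2 of them listed in all tables POA had 98.98% ± 1.24 and PFC 98.3% ± 3.33, which overlapped. The annotation used here places no gene on them.

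The share of Kcnk9 and of the bases past its 3′ end did not overlap between the adult regions, and the difference did not pass correction. Over the 18 bases of Kcnk9 and its flanks that all tables list, the 4 POA pools had 98.02% to 99.8% and the 4 PFC pools 93.1% to 96.4%, with no overlap. How many of all genes had shares without overlap between the regions was not counted. The means were 98.9% ± 0.792 in POA and 94.3% ± 1.45 in PFC, a difference of 4.64 points (exact permutation test, two-sided p = 0.0286, the smallest that 4 against 4 pools allow, and 0.133 adjusted over the 14 genes and stretches compared). The coding base alone had 98.8% ± 1.40 in POA and 84.7% ± 9.83 in PFC, 14.1 points apart, with the same p and the same adjusted p. Its PFC shares rest on 10 to 20 reads per pool. This base and those past the 3′ end are part of the 18, so their tests are not separate results. The 15 shared bases past the 3′ end had 98.9% ± 0.824 in POA and 94.4% ± 1.75 in PFC, without overlap, while the 2 shared bases before the 5′ end differed by 0.649 points, with overlap (exact permutation p = 1). In the fit over all genes the parental term of Kcnk9 was 7.42 ± 1.99 higher in POA than in PFC, with an adjusted p of 0.17 by edgeR. None of the 4 members passed that test, against 0.31% of the 11276 genes. This permutation test was chosen after seeing the data. Leaving out POA pools 1 at a time moved p to 0.0571 without the F1i female, F1i male or F1r male pool, with a difference of 4.34 to 4.77 points.

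The pools of the other members overlapped between the regions over both crosses. At bases listed in all tables, Trappc9 averaged 74.7% ± 5.56 in POA and 71.2% ± 7.98 in PFC (exact permutation p = 0.486), and Peg13 0.414% ± 0.248 in POA and 0.596% ± 0.445 in PFC. That test does not match pools by cross, and F1i and F1r shares lay apart. Within each cross and sex Trappc9 was higher in POA in 4 of 4 pairs, with 68.8%, 71.6%, 77.4% and 81.1% in the POA F1i female, F1i male, F1r female and F1r male pools, against 63.9%, 64.9%, 76.6% and 79.5% in the same PFC pools. Peg13 was lower in POA in 4 of 4 pairs, with 0.182%, 0.218%, 0.607% and 0.649% in POA, against 0.238%, 0.241%, 0.749% and 1.16% in PFC. How many of all genes lay on the same side in 4 of 4 pairs was not counted. By these values the male pool also lay above the female pool of its cross and region in every pair, for Trappc9 and for Peg13. In the fit over all genes, which takes the crosses into account, the difference POA minus PFC of the parental term was 0.52 ± 0.19 for Trappc9 (edgeR, adjusted p = 0.55), 0.89 ± 0.86 for Eif2c2 and -0.79 ± 0.46 for Peg13. Oligodendrocyte markers summed to 3989.7 to 4576 RPM in POA and 724 to 2688 in PFC, over the 2 of 5 in all tables (Mbp and Mag). Neuron markers summed to 2300.2 to 2707 in POA and 3296 to 4350.2 in PFC, over 3 of 5. The part of these cell types in any difference between regions was not tested, and in bulk tissue fewer cells of a type cannot be told apart from less RNA per cell.

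Eif2c2 lay above 50% maternal in POA and E15 pools and was divided by cross in PFC. The transcript table gave 67.8% and 63.6% in the POA F1i female and male pools, and 79.7% and 77.4% in the POA F1r female and male pools, over 44 to 118 reads. In PFC it gave 43.3% and 35.3% in F1i and 84.6% and 86.1% in F1r, over 13 to 36 reads, so that the PFC F1i pools lay on the paternal side. The E15 pools had 66.3% in F1i and 86.3% in F1r. The parental term was 2.67 ± 0.33 over the adult pools (edgeR, adjusted p = 7.9e-06), 2.88 ± 0.36 in POA (9.7e-05) and 1.98 ± 0.71 in PFC (0.74), and 3.53 ± 0.66 at E15 (Fisher's exact test, 1.8e-07). Without the POA F1i female pool (2.43) or the POA F1i male pool (2.69) the mean share of the remaining adult F1i pools was not above 50% and the adult call was lost, although the adjusted p was 0.0024 and 6.5e-05. In POA the call was lost without the F1i female pool (2.70, adjusted p = 0.054) and with X-linked genes in the fit (2.83, adjusted p = 0.064).

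The genome tables gave more reads of Eif2c2. Only the part of the gene within the stretch was used, and the rest was left out. The share need not cover the same bases as that of the transcript table. In this part, towards the 3′ end of the gene, 11 to 16 bases were listed from 72932393 to 72944258, most of them in untranslated sequence. There the share was 69.1%, 68.9%, 72.3% and 80.4% in the POA F1i female, F1i male, F1r female and F1r male pools. In PFC it was 62.7%, 66.0%, 79.2% and 78.9% in the same order, over 72 to 209 reads. The E15 pools had 62.0% in F1i and 84.5% in F1r. All 10 pools then lay above 50%, those of PFC included.

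Chrac1 is transcribed towards Eif2c2, and the ends of both genes lie near each other. In the E15 transcript table Chrac1 had 7 maternal reads of 10 in F1i and 3 of 11 in F1r, too few for a test at the filter of 20 reads per pool. At a filter of 5 its parental term was -0.18 (Fisher's exact test, adjusted p = 1). The genome tables listed 7 to 8 bases within the gene, most of them intronic, with mean maternal shares of 70.02% ± 13.3 in POA, 67.1% ± 17.3 in PFC (n = 4 each) and 77.6% ± 4.26 at E15 (n = 2). The F1i pools had 62.2% and 55.3% in POA and 58.0% and 48.1% in PFC, below the F1r pools, which had 80.6% and 82.0% in POA and 76.0% and 86.4% in PFC. Only 1 of these bases was deep enough to test in POA, and it was called maternal.

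Between Chrac1 and Eif2c2, from 72928213 to 72932009, 13 to 16 further bases were read. Their mean maternal share was 73.6% ± 1.58 in POA, 71.6% ± 4.97 in PFC (n = 4 each) and 77.2% ± 7.59 at E15 (n = 2). The single pools ran from 66.6% to 82.5%, all above 50%. Whether these reads belong to Chrac1, to Eif2c2 or to another transcript cannot be told without strand. DQ715667, an entry of chromosome 15 with no name beyond its accession, may hold reads of the same stretch: by its counts its adult base was closest to position 72929238 between Chrac1 and Eif2c2, as was 1 of its 2 E15 bases, and the other E15 base was closest to a base in a Trappc9 exon. It had a maternal share of 67.5% to 87.6% in the 10 pools. Its parental term was 2.98 ± 0.33 in adults (edgeR, adjusted p = 1.2e-06).

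Base by base, the domain fell into maternal stretches on both sides of a paternal one. Of 71 bases deep enough to test over the adult pools, 40 were called maternal and 31 paternal, against 0.977% of the 50580 autosomal bases tested (0.397% maternal and 0.579% paternal). In POA 55 of 87 were called maternal and 32 paternal, against 1.36% of all bases (0.482% maternal, 0.878% paternal). In PFC 19 of 54 were maternal and 31 paternal, against 0.642% (0.358% maternal, 0.284% paternal). At E15 47 of 86 were maternal and 31 paternal, against 1.97% (1.26% maternal, 0.711% paternal). All paternal calls at this depth lay in Peg13, where every tested base was called, 32 of 32 in POA, 31 of 31 in PFC and 31 of 31 at E15. No tested base of Kcnk9, Trappc9, Chrac1, Eif2c2 or the stretches beside them was called paternal. Bases that were tested and not called numbered 0 in POA, 4 in PFC and 8 at E15, and lay in Trappc9 3′ of Peg13, between Chrac1 and Eif2c2, and in Eif2c2. The bases past the end of Peg13 had too few reads to enter these tests. With the filter lowered to a mean of at least 10 reads per pool, 41 bases of the domain were called paternal at E15. Peg13 has 33 listed bases at E15, so some of these calls lay outside it. Over the adult pools the lower filter gave 32 paternal calls. Neighbouring bases share reads: 49 of 140 in POA, 38 of 118 in PFC and 64 of 176 at E15 had another listed base within the read length of 36 bases.

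**Figure D3:**
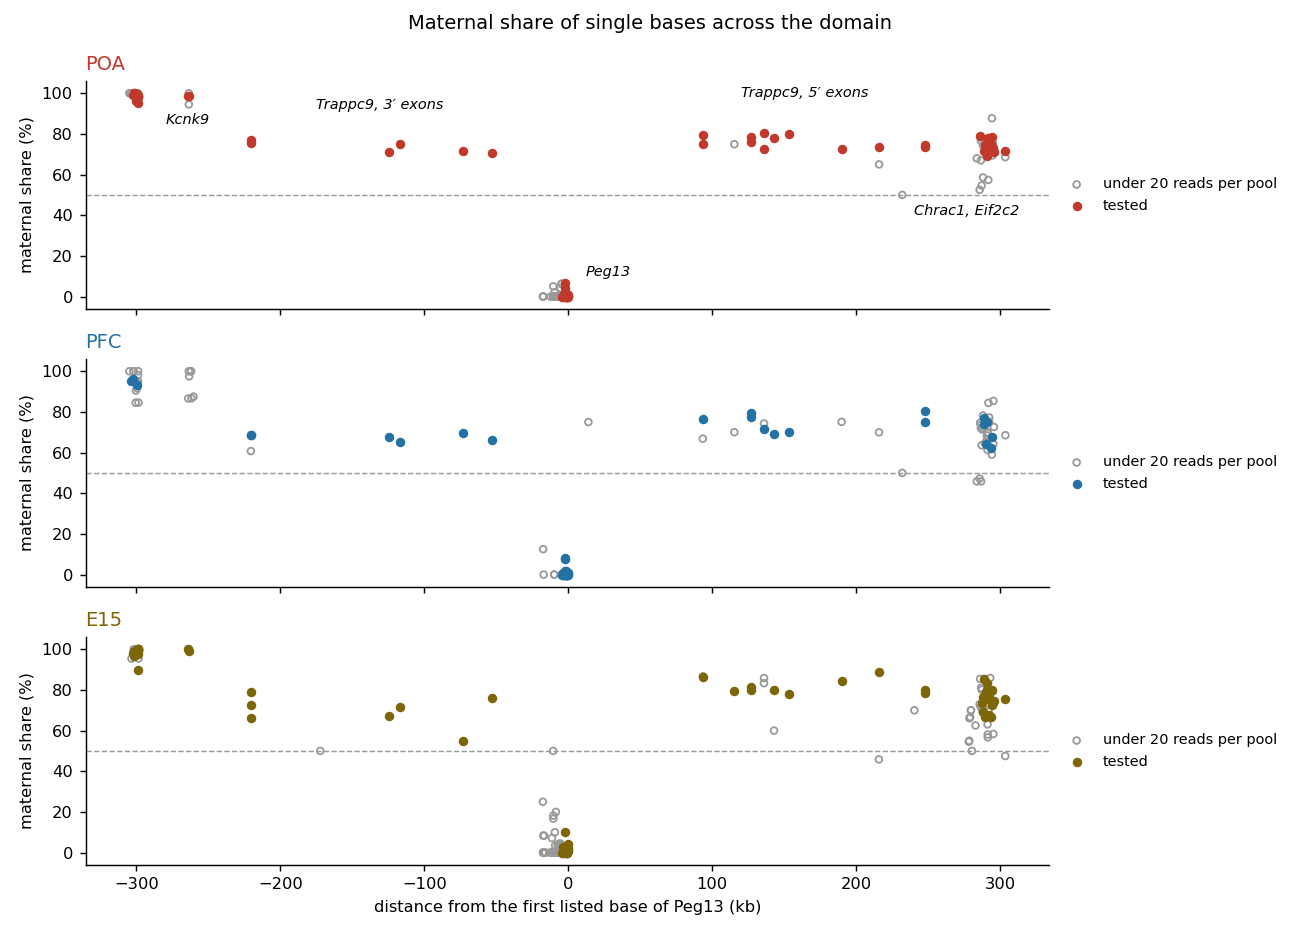
Mean maternal share of each listed base (vertical axis, percent) against its distance from the first listed base of Peg13 (horizontal axis, kb, positive towards the 5′ end of Trappc9), for POA, PFC and E15. Filled points had at least 20 reads per pool on average and were tested, and open grey points were not. Points near 0 kb lie near 0%, those of Kcnk9 at the left near 100%, and those of the Trappc9 exons, Chrac1 and Eif2c2 mostly above 50%.

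A few intronic bases of Trappc9 followed the strain and not the parent. The 2 bases listed in each adult region and the 4 at E15 had 3 to 20 reads per pool, and their maternal share was 71.4% and 100% in the POA F1i pools, 0% and 33.3% in the POA F1r pools, 100% and 100% in the PFC F1i pools, 20% and 0% in the PFC F1r pools, 95% in the E15 F1i pool and 25% in the E15 F1r pool. The CAST base was thus the more frequent in both crosses. None was deep enough to test. Between Trappc9 and Chrac1 the E15 table listed 6 bases, maternal in 18 of 29 F1i reads and 22 of 43 F1r reads, again too few to test.

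Sex of the pools made no called difference to any member. Of 11276 genes 0 were called for a parental term that differed between female and male pools (edgeR, 0%), with 491 at an unadjusted p under 0.05, and 0 were called by DESeq2, with 29 at an unadjusted p under 0.05. The difference female minus male was -0.38 ± 0.22 for Trappc9, -0.57 ± 0.42 for Peg13, 0.58 ± 0.72 for Eif2c2 and 2.87 ± 2.44 for Kcnk9, each with an adjusted p of 1. Trappc9 had a maternal share of 67.7% and 78.9% in the POA female pools and 71.0% and 81.9% in the POA male pools. In PFC it had 62.6% and 77.3% in the female pools and 63.7% and 80.2% in the male pools. Its male pool was thus the higher in each cross and region. For Peg13 that held at bases listed in all tables, and over all its bases not in PFC F1i, with 0.227% female and 0.219% male.

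Adult and embryonic shares differed by less than the test could call. The parental term adult minus E15 was -0.76 ± 0.25 for Trappc9 (edgeR, adjusted p = 0.28), -0.92 ± 0.76 for Eif2c2, -3.73 ± 3.09 for Kcnk9, a value that rests on E15 pools without a paternal read, and -0.05 ± 0.62 for Peg13. None of the 4 was called, against 0.362% of 11877 genes. Trappc9 averaged 72.9% ± 7.64 maternal in adult pools (n = 8) and 78.2% ± 1.39 at E15 (n = 2). Its E15 F1i share of 77.2% lay above all 4 adult F1i shares, and its E15 F1r share of 79.2% lay among the adult F1r shares.

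Total expression of 3 of 4 members differed between POA and PFC, and of 2 of 4 between adults and E15, shares that stand beside backgrounds of 55.9% and 63.4%. Levels are RPM over bases listed in all tables, so they compare pools for 1 gene and not genes with each other. RPM is not TMM-scaled, unlike the tests. The TMM factors at these bases were 1.05 to 1.07 in POA, 0.871 to 0.899 in PFC and 1.11 and 1.15 at E15. RPM therefore sets POA and E15 higher against PFC than TMM-scaled levels would. The tests of POA against PFC used bases listed in both adult regions, so they can rest on further bases. Kcnk9 had 13.8, 10.98, 14.7 and 10.2 RPM in the POA F1i female, F1i male, F1r female and F1r male pools, against 2.83, 2.13, 1.74 and 3.68 in the same PFC pools. The groups did not overlap, and the log2 difference POA minus PFC was 1.98 ± 0.26 (edgeR, adjusted p = 3.5e-05). Peg13 had 1083, 979, 918 and 912 RPM in POA, against 595, 529, 417 and 619 in PFC, again without overlap (0.53 ± 0.13, adjusted p = 0.0034). Eif2c2 was higher in POA as well, at 12.9 ± 1.94 in POA and 4.37 ± 2.16 in PFC (1.32 ± 0.29, adjusted p = 0.0021). Trappc9 had 193 ± 9.82 in POA and 137 ± 13.0 in PFC, with no overlap, and a TMM-scaled difference of 0.24 ± 0.10 that was not called (adjusted p = 0.059). Without the PFC F1i male pool (0.31, adjusted p = 0.026) or the PFC F1r female pool (0.28, adjusted p = 0.038) it was. Of the 11580 genes tested 55.9% were called (26.9% higher and 29.1% lower in POA), and the 3 calls among 4 members stand beside that background. How many of all genes also had levels without overlap between the POA and PFC pools was not counted.

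The levels of each copy are given next, without a test of their own and without TMM scaling. Part of each POA and PFC difference in them is thus the scaling offset given above. The maternal copy of Kcnk9 had 12.3 ± 2.13 RPM in POA and 2.22 ± 0.855 in PFC, while its paternal copy had 0.148 ± 0.171 in POA and 0.376 ± 0.199 in PFC. The paternal values rest on 0, 1, 2 and 0 reads in the POA pools and 2, 3, 1 and 2 in the PFC pools. For Trappc9 the maternal copy had 144 ± 17.5 in POA and 97.6 ± 13.7 in PFC, and the paternal copy 48.3 ± 8.70 in POA and 39.5 ± 11.6 in PFC. The paternal copy of Peg13 had 969 ± 81.1 in POA and 537 ± 89.4 in PFC.

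**Figure D4:**
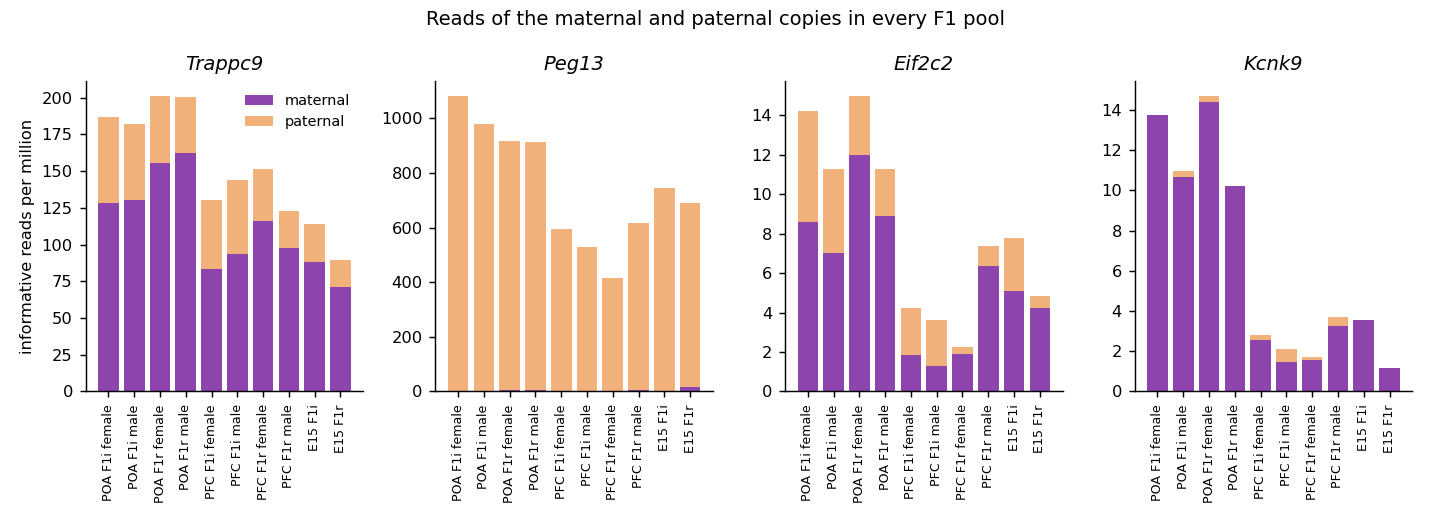
RPM (vertical axis, a scale of its own in each panel, from 0, without TMM scaling) of the maternal (purple) and paternal (orange) copies in each F1 pool, at bases listed in all tables. The 4 POA pools stand at the left, then the 4 PFC pools and both E15 pools. Kcnk9 is almost wholly purple with its tallest bars in POA, Peg13 is almost wholly orange, and Trappc9 and Eif2c2 show both colours in every pool.

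Between adult and E15 pools Trappc9 rose, at 165 ± 31.5 RPM in adult pools (n = 8) and 102 ± 17.1 at E15 (n = 2), a log2 difference of 0.89 ± 0.14 (edgeR, adjusted p = 7e-05). Kcnk9 rose as well, at 7.51 ± 5.47 in adult pools and 2.38 ± 1.69 at E15 (1.5 ± 0.37, adjusted p = 0.0026), and its PFC pools, 1.74 to 3.68, overlapped the E15 pools, 1.18 to 3.58. Peg13 (0.23 ± 0.14, adjusted p = 0.16) and Eif2c2 (0.47 ± 0.33, adjusted p = 0.22) were not called. For Peg13 this call turned without the PFC F1r female pool (0.28, adjusted p = 0.046). The background was 63.4% of 11783 genes called (30.3% higher and 33.1% lower in adults). Whole brain at E15 differs from the dissected adult regions in its cells: markers of neural progenitors and immature neurons, 3 of 5 in all tables, summed to 36.1 to 87.8 RPM in adult pools and 514 to 860.4 at E15. Their part in these differences was not tested.

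With the parents balanced, B6 reads were ahead of CAST reads for Trappc9 and Eif2c2 in adults. The strain term, log2 CAST over B6 averaged over the crosses, was -0.49 ± 0.05 for Trappc9 (edgeR, adjusted p = 9e-08), -1.05 ± 0.19 for Eif2c2 (8.9e-05) and -0.58 ± 0.66 for Kcnk9 (0.52). For Peg13 it was -1.47 ± 0.09 (8.2e-12), which sets the few maternal reads of one cross against those of the other, and at the base with most reads alone it turned to 0.36 (adjusted p = 0.69). The 3 calls among 4 members stand beside a background of 42.7% of 11276 genes. Of these 4814 calls 3146 leaned to B6 and 1668 to CAST, and the median strain term over all genes tested was -0.06. At the base with most reads Eif2c2 was not called (-0.49, adjusted p = 0.17). Pools of the pure strains at E15 numbered 1 per strain, so no test was possible. The log2 ratio of CAST to B6 levels was -0.20 for Trappc9, -0.20 for Peg13, -0.49 for Eif2c2 and 0.16 for Kcnk9. The median over all genes was -0.03. The Kcnk9 value rests on 11 reads in the CAST pool and 12 in the B6 pool, and that of Eif2c2 on 35 and 60. Trappc9 had 384 and 535 reads, and Peg13 3069 and 4286. The allele ratio within E15 F1 brains, averaged over both crosses, was -0.08 for Trappc9 and -0.80 for Eif2c2, beside a median of -0.11 over all genes, so that Trappc9 lay close to the median there.

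By the mean absolute difference of the maternal share over the 10 pools, among 10364 autosomal genes, the entry nearest to Trappc9 was DQ715667, at 8.63 points. Its bases were closest by their counts, without being identical, to positions of the domain itself, so it may hold reads of the domain. Blcap of chromosome 2, Copg2 and Herc3 of chromosome 6 and B3gnt2 of chromosome 11 followed, at 10.2 to 13.8 points. Blcap, Copg2 and Herc3 are each known to overlap a paternally expressed gene. The genes nearest to Peg13 were Peg3, AF217545, Snrpn, Peg10 and Nap1l5, at 0.353 to 0.541 points, of which Peg3, Snrpn, Peg10 and Nap1l5 are known paternally expressed genes. These likenesses are descriptions of shares in the same libraries.

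No gene known to work with the members, and no near neighbour outside the stretch, was called for parental bias. Among adult pools edgeR called 0 of 11 tested TRAPP complex genes, 0 of 11 of the Argonaute and small RNA pathway, 0 of 1 partners of Chrac1, 0 of 6 other Kcnk channels and 0 of 10 neighbours on chromosome 15. An unadjusted p under 0.05 was seen for 1 of these genes, Trappc8 (-0.56 ± 0.26, adjusted p = 0.73), and DESeq2 called 0 in each list. The median parental terms of the lists, in the order given, were -0.01, -0.05, 0.19, -0.05 and -0.05, beside -0.03 over all genes tested.

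In total expression the lists are described by their counts, beside 26.9% of all genes called higher and 29.1% called lower in POA. Between POA and PFC 4 TRAPP genes rose and 2 fell of 11, with Trappc4 (1.05 ± 0.15, adjusted p = 6e-05) and Trappc2l (0.78 ± 0.13, adjusted p = 0.00019) among those that rose (edgeR). In the Argonaute list 5 of 11 rose and 0 fell, led by Tnrc6a, a GW182 scaffold of silencing complexes (1.21 ± 0.15), and Prkra, a partner of Dicer (1.78 ± 0.23). Of 6 Kcnk channels 3 rose and 1 fell, Kcnk4 (TRAAK), by 2.65 on the log2 scale. Among the chromosome 15 neighbours 2 of 10 rose and 7 fell, with the immediate early gene Arc at -3.14 ± 0.14 and Khdrbs3 at -2.02 ± 0.12. The median differences of these 4 lists were 0.17, 0.38, 0.39 and -0.71, beside -0.01 over all genes. Between adult and E15 pools 8 of 11 Argonaute pathway genes fell and 0 rose, beside 33.1% and 30.3% of all genes (median -1.19, beside -0.04 over all genes), among them Dicer1 (-1.54 ± 0.15, adjusted p = 3.8e-07) and Eif2c3 (-2.13 ± 0.25, adjusted p = 3.3e-06). Eif2c2 itself did not pass that test.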

How the data were processed

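The authors deposited whole-number counts of reads per allele, CAST or B6, at each strain-specific position of transcripts and of the genome, with 1 column per pool and allele and technical replicates not separated. Reads were 36 bases long, from randomly primed libraries, and were aligned with Novoalign on mm9, per the submitters' processing notes and the labels' protocols. Adult pools hold 2 and E15 pools 4 technical replicates. Annotation and sequence came from NCBIM37 (GENCODE vM1).

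Counts were summed over the bases of each gene's deepest transcript. Of 33 transcript bases of Peg13 at E15, 32 were placed on the genome by the spacing of their positions. The next best placement fitted 5. Allele counts of autosomal genes averaging at least 20 reads per pool were fitted by edgeR 4.0.16 (quasi-likelihood, R 4.3.3) with terms for pool, allele, allele by region and allele by cross, and p-values were adjusted over all genes (Benjamini-Hochberg). Each E15 pair was compared by Fisher's exact test. A parental call needed an adjusted p under 0.05 and the same parent ahead of 50% in each cross. Totals were tested with TMM scaling. POA minus PFC used bases listed in both adult regions, and adult minus E15 used bases listed in all 3 tables. Single values were compared by exact permutation tests, for which 4 against 4 pools give no p under 0.0286 and 2 against 2 none under 0.333. Intervals are Clopper-Pearson 95% intervals. They and the limits on counts of 0 cover counting error only, since reads are not independent molecules. Overlapping genes share reads. The fits were tested on simulated data, and DESeq2 1.42.0 served as the alternative.

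The text names all members, the 5 genes nearest to Trappc9 and to Peg13 in share, and up to 3 genes of each related list by p. Members and lists were chosen with earlier results of these data known.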

Additional observations from a re-analysis of the deposited data

Results flagged for a closer look

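In 42 sets of 4 pools (each stretch or gene in POA or in PFC), the pool farthest from the others was set against the range of the set. Where its gap to the nearest pool took a larger share of that range than Dixon's 95% limit, it is given here, which chance gives in about 1 set of 20. There were 4 such values, 3 of them at Kcnk9.

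The base in the coding sequence of Kcnk9 had a maternal share of 70% in the PFC F1i male pool, from 7 of 10 reads, and 88.9% to 90% in the other PFC pools. Over Kcnk9 and its flanks the PFC F1r male pool had 96.1% and the other PFC pools 93.5% to 93.7%. Before the 5′ end of Kcnk9 the POA F1r male pool had 100% (54 of 54 reads) and the other POA pools 97.6% to 97.9%. Past the end of Peg13 the PFC F1i male pool had 9.09%, which is 1 maternal read of 11, and the other PFC pools had 0%, from 13, 33 and 18 reads.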

How the results depend on the processing

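Under other settings 246 values kept their direction, their side of the threshold or their size. Of the rest 12 moved, 1 reversed, 1 came to be called and 3 were no longer called. The 246 include adult Trappc9 without bases inside Peg13, which is the main value itself, since its transcript has none there. Without one pool 329 values kept their direction, side or size, while 14 moved, 6 reversed, 3 came to be called and 6 were no longer called. In both sets, those no longer called include share differences, of Kcnk9 with its flanks or of both sides of Trappc9. These were rated by an unadjusted exact p under 0.05, and neither difference had passed correction, so no call was lost there. Trappc9 and Peg13 kept their parental calls in adults, POA, PFC and E15 under all of them, and Kcnk9 its calls in adults, POA and E15. The exceptions follow. The cause was not tested, except where fewer bases or pools entered by construction.

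Genes called for parental bias in POA numbered 55 with X-linked genes included and 58 by DESeq2, against 128. At E15 351 were called at the base with most reads alone and 102 by edgeR with the spread of the adult pools, against 700. Strain calls numbered 2685 at the base with most reads and 2810 by DESeq2, against 4814. Calls by region numbered 10 by DESeq2, against 35, and calls by age 95 at the base with most reads and 8 by DESeq2, against 43. With at least 50 reads per pool 329 genomic bases were called, against 494, of which 6 maternal in the domain, against 40, and at E15 13 maternal in the domain, against 47. In POA Eif2c2 was 2.83 with X-linked genes and not called. The strain term at the base with most reads was 0.36 for Peg13, reversed, and -0.49 for Eif2c2, not called. The total of Peg13, adult minus E15, was 0.38 and called over all bases of each table. Trappc9 5′ minus 3′ of Peg13 was 4.87 points in adult pools alone.

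Without one pool at a time, the call counts ran from 60 to 158 in POA (158 without the F1r male pool, 66 or fewer without any other), 13 to 91 by region (91 without the POA F1r male pool, 20 or fewer without any other) and 0 to 21 by sex (21 without the PFC F1r female pool, 1 or 0 otherwise). Eif2c2 ran from 2.43 to 2.77 in adults and 2.70 to 2.96 in POA. The strain term of Kcnk9 ran from -1.34 to 0.49, the sex terms from -0.23 to 0.96 for Eif2c2 and -1.69 to 7.22 for Kcnk9, and the age term of Peg13 from -0.21 to 0.20, none of them called. The total POA minus PFC of Trappc9 ran from 0.18 to 0.31, and the total adult minus E15 of Peg13 from 0.16 to 0.28. Kcnk9 and its flanks differed by 4.23 to 5.34 points between POA and PFC, and both sides of Trappc9 by 4.23 to 6.28 points.

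No paired analysis was possible because the replicate numbers of the labels count technical replicates, which the columns do not separate. Pools do match by cross and sex: with POA and PFC reads summed per cross and sex, the parental calls in adults held, with Trappc9 at 2.93, Eif2c2 at 2.65, Kcnk9 at 9.55 and Peg13 at -15.07. Bases at least 36 bp apart, the stretches compared and the tests of Kcnk9 and Trappc9 shares were chosen after seeing the data. Few reads limit Chrac1, Kcnk9 in PFC and at E15, and Eif2c2 in PFC.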
